A study of Mus musculus with 7 samples.

Results

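The genes described here encode the proteins of the cytoplasmic ribosome. They were picked by symbol: every row of the count table whose symbol is Rpl or Rps followed by a number, with the closely named paralogues, together with Rplp0, Rplp1, Rplp2 and Rpsa. This gave 85 genes of 27998 rows, of which 31 encode proteins of the small subunit, 43 proteins of the large subunit, 3 the P proteins of the stalk, and 8 are paralogues of another member. Over all kept cells 82 genes held at least 50 unique molecular identifiers (UMIs, counted molecules), while Rpl10l and Rpl39l held 1 UMI each and Rpl3l held 0.

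The cells were oligodendrocyte lineage cells (OLCs) sorted from cortex, which the sample labels give as motor and cingulate cortex and the protocol as neocortex, of mice of both sexes at P90 (11 to 14 weeks) on a C57BL/6-B6CBA background, with 1 library per condition. In Emx1-Cre:Sox10-GFP-TdTom mice, Emx1-Cre acts in the dorsal forebrain, so dorsally derived cells carry tdTom while ventrally derived cells carry GFP, both driven by Sox10 sequences. Control dOLCs were the tdTom+ cells and control vOLCs the GFP+ cells of these mice, of which there were 4. Ectopic vOLCs were the GFP+ cells of mice that carry Sox10-GFP-DTA beside Emx1-Cre:Sox10-GFP-tdTom, of which there were 2, and in which diphtheria toxin fragment A is made in Sox10-expressing dorsal cells. The mice of a library are not told apart in the files, so no difference between conditions could be set against the spread between animals, and no test was made. The intervals given are 95% exact intervals of counting error only, taken as if UMIs were independent. Where 3 values stand in a row without further words, they belong to control dOLCs, control vOLCs and ectopic vOLCs, in this order.

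After the authors' quality filter 5804 control dOLCs, 925 control vOLCs and 2562 ectopic vOLCs were kept, with medians of 3489.5, 5022 and 5318.5 UMIs per cell. Between 15 and 33 kept cells of a library carried a barcode string that also occurred in another library. In MOL5/6, the largest class of mature oligodendrocytes, the myelin genes Mbp, Mog, Mag and Mobp were each at 1908 or more counts per 1000000 UMIs (CPM) in every library, and the 5 microglial markers summed to at most 1.21 CPM with at least 2 of them at 0. In OPCs, the oligodendrocyte precursors, the 4 markers Pdgfra, Cspg4, Ptprz1 and Cacng4 summed to between 5534 and 7433 CPM. The neuronal list there summed to between 1090 and 1262 CPM, of which Meg3 alone gave at least 1026 CPM, while Rbfox3 was at 1.90 CPM in control dOLCs and at 0 in the other 2 libraries. The astrocyte list summed to 189, 153 and 143 CPM in MOL5/6 and to 628, 636 and 691 CPM in OPCs. Most of this came from Slc1a3 and Aldoc, while Aqp4 was at most at 22.1 CPM and Gfap at 2.53 CPM.

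A ribosome is built from ribosomal RNA and one copy of most ribosomal proteins, with the small subunit reading the messenger RNA and the large subunit joining amino acids. Ribosomal protein messenger RNAs are short and abundant, and in vertebrates most start with a run of pyrimidines, the TOP motif, through which their translation is controlled together. Oligodendrocytes make large amounts of myelin protein and lipid, and part of their protein synthesis takes place in the processes, away from the cell body. Ribosomal protein genes have also left many processed pseudogenes, intronless copies of the messenger RNA inserted elsewhere in the genome, and a read that matches a gene and its copy can be counted under either name.

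The start sites of 6 of the genes named below are shown as examples. A link between these sequences and RNA levels was not tested. Each line gives 30 bases of RefSeq sequence on build GRCm38.p6, 15 before the annotated start and 15 from it, with the longest run of C or T in capitals.
Rps18 (chr17:33955651-33955680, minus strand): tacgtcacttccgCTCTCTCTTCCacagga
Rps6 (chr4:86857353-86857382, minus strand): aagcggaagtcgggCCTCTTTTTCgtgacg
Rps21 (chr2:180257364-180257393, plus strand): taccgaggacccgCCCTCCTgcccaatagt
Rps9 (chr7:3704026-3704055, plus strand): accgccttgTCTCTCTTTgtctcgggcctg
Rpl15 (chr14:18270972-18271001, minus strand): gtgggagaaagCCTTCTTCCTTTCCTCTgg
Rpl13 (chr8:123102335-123102364, plus strand): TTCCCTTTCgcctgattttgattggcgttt
Of the 64 members with a start-site window in this set, 18 (28.1%) held CTTTC on the sense strand within 25 bases of the start, against 6.60% of 27025 genes. A run of at least 6 pyrimidines lay in the same window in 41 of the 64 members (64.1%) and in 43.9% of all genes. These are matches of letters only.

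Near-identical copies held a share of the UMIs, and this share differed between libraries. A copy was a row of the table whose symbol holds -ps or Gm and whose transcript matched that of a member over at least 80% of its length at 95% identity or more, or which carries the member's name with -ps. Among such rows, 16 held at least 50 UMIs and belonged to 15 members. The copy held a median of 4.11%, 13.3% and 3.44% of the UMIs of the pair, and its share was highest in control vOLCs in 16 of 16 pairs. When rows of any name whose match spans at least 80% of the coding length were added, a rule chosen after the data were seen, there were 26 pairs and control vOLCs had the highest share in 25. The exception was Rplp0 with Gm8730.

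Rpl10, a protein of the large subunit, has a copy on another chromosome, Rpl10-ps3, whose 645 coding bases differ from it at 0 positions. Rpl10 held 14127, 2340 and 10053 UMIs. Rpl10-ps3 held 747, 432 and 607, or 5.02%, 15.6% and 5.69% of the pair. Rpl6l, which fits the naming rule and so is a member, is annotated in GENCODE M21 as a processed pseudogene, has Rpl6 as its closest member, and held 6.80%, 18.9% and 6.98% of the UMIs of that pair. In both pairs the share was highest in control vOLCs, and the other 2 libraries were close to each other.

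Pooled over copies, the share within a library was much the same in each cell type, while single pairs could differ either way. In control dOLCs BC004004, matched to Rpl21 by the wider rule, held 1293 UMIs beside 9370 of Rpl21 in MOL5/6. In OPCs it held 282 beside 1211. In control vOLCs Rps12-ps3 held 397 UMIs beside 837 of Rps12 in MOL5/6, and 13 beside 47 in OPCs. Pooling 24 copies of 22 members, without Gm8730 and Gm10260, the copies held between 5.60% and 6.08% of the UMIs of member and copy in control dOLCs across OPCs, MOL1, MOL2 and the 4 subclusters of MOL5/6. Across the same cell types the range was 13.5% to 15.3% for control vOLCs, and 6.03% to 6.72% for ectopic vOLCs. In OPCs the values were 5.60% (95% Clopper-Pearson interval 5.35 to 5.85), 13.5% (12.5 to 14.7) and 6.03% (5.69 to 6.37). What sets the library difference was not tested.

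**Figure D1:**
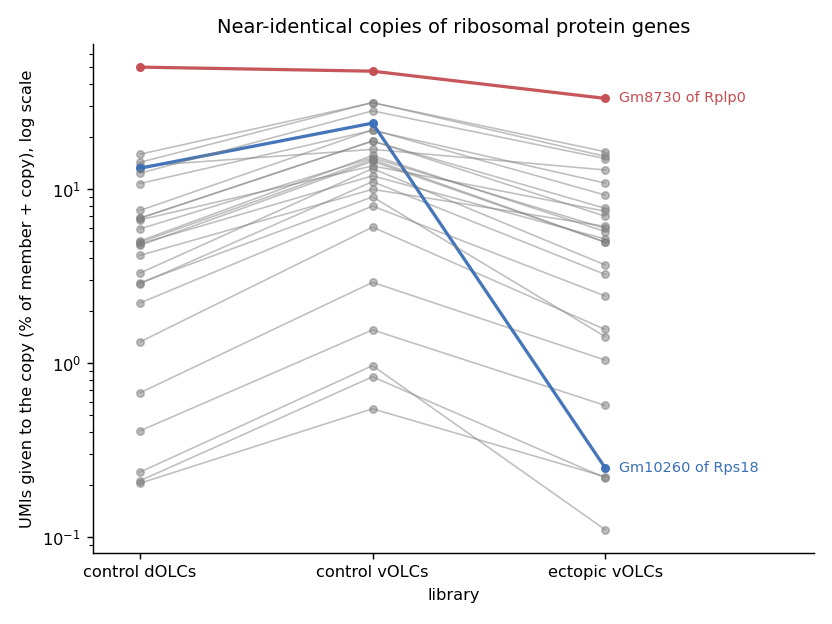
Share of UMIs counted under a near-identical copy, in percent of the UMIs of member and copy together (log axis), for 27 pairs with at least 50 UMIs under the copy, including Rpl6 with Rpl6l; each line joins the 3 libraries. Control vOLCs stand highest in all pairs but Rplp0 with Gm8730, and Gm10260 falls to 0.25% in ectopic vOLCs.

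Rps18 and Rplp0 stood apart from the rest. Rps18 (chr17:33951999-33955677, minus strand, GRCm38) and its copy Gm10260 (chr13:97760072-97760632, minus strand), annotated as protein coding, differ at 4 of 459 coding bases, counted from the A of the start codon, and 3 of these lie in the last 138 coding bases, which are printed with the differing bases in capitals.
Rps18: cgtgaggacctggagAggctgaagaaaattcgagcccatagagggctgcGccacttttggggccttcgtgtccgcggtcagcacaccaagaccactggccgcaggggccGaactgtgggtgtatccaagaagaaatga
Gm10260: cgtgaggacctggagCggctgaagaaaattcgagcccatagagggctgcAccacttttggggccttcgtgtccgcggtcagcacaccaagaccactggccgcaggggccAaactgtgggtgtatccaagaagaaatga
The differences are A337C, G371A and G431A, with the member's base first. Gm10260 held 1620, 530 and 20 UMIs, whereas Rps18 held 10687, 1686 and 7993. Gm10260 was thus nearly absent from ectopic vOLCs, with 0.25% of the pair against 13.2% in control dOLCs. In MOL5/6 the log2 ratio of Rps18 between ectopic vOLCs and control vOLCs was 0.58 (0.49 to 0.67), and that of Rps18 summed with its copies was 0.10.

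Rplp0 (chr5:115559467-115563727, plus strand), the stalk protein that anchors the other P proteins, and Gm8730 (chr8:102864845-102865798, minus strand) differ at 12 of 954 coding bases. Coding bases 681 to 814 are printed with the differences A696G and A784G in capitals.
Rplp0: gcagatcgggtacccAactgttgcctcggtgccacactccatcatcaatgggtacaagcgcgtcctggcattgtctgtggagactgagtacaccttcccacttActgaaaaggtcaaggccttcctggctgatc
Gm8730: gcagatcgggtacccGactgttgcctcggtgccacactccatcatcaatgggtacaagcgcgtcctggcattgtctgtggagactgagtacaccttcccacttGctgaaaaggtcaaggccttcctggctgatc
Gm8730, annotated as a processed pseudogene, held 50.2%, 47.6% and 33.2% of the UMIs of this pair. Counted under its own name, Rplp0 was higher in ectopic vOLCs than in control dOLCs in MOL5/6, with a log2 ratio of 0.26 (0.21 to 0.30). Summed with Gm8730 the ratio turned to -0.17, so no direction is given for Rplp0 in this comparison.

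The share of all UMIs that came from the 85 genes differed most between clusters, and the same clusters were high in each library. The authors split MOL5/6 into 4 subclusters. In MOL5/6a the share was 3.50%, 3.71% and 3.21%, and in MOL5/6b it was 3.85%, 3.70% and 3.62%. In MOL5/6c it was 6.58%, 6.37% and 6.61%, and in MOL5/6d it was 6.92%, 7.09% and 7.02%. MOL5/6d thus exceeded MOL5/6a by 1.98-fold, 1.91-fold and 2.19-fold. MOL5/6a and MOL5/6b lay at or below 3.85% in every library, and MOL5/6c and MOL5/6d at or above 6.37%.

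MOL2, another class of mature oligodendrocytes, was divided in the same way. MOL2a had shares of 3.21%, 3.15% and 2.72% and MOL2b shares of 6.32%, 7.15% and 6.35%, the value for MOL2b in control vOLCs resting on 6 cells. Cells with a share above 5% made up at most 5.96% of MOL5/6a, MOL5/6b and MOL2a in any library, and at least 88.7% of MOL5/6c, MOL5/6d and MOL2b. Between 0% and 16.02% of the cells of these subclusters lay between 4.5% and 5.5%. The subclusters were built by the authors on the expression of these same cells, so these values describe the split and are no test of it.

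**Figure D2:**
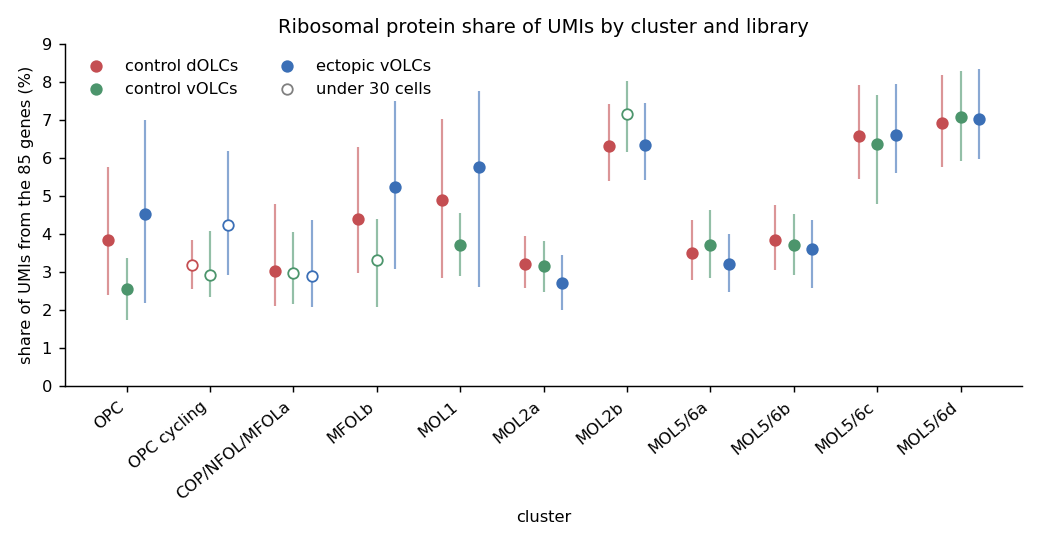
Share of UMIs from the 85 genes (percent, points) by cluster and library, with vertical lines from the 10th to the 90th percentile of single cells; open points have fewer than 30 cells. MOL2b, MOL5/6c and MOL5/6d lie between 6.32% and 7.15% in all libraries, and MOL2a, MOL5/6a and MOL5/6b at or below 3.85%.

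All parts of the ribosome took part in the split. Between MOL5/6d and MOL5/6a of control dOLCs, 82 of 82 members tested stood above 0 and 81 had a log2 ratio of at least 0.25, where 38.2% of all genes tested did. In control vOLCs 81 of 82 members passed this fold beside 35.6% of all genes, and in ectopic vOLCs 82 of 82 beside 43.4%. Downward 0 members passed it in any library, beside 18.9%, 29.1% and 16.8% of all genes. A gene entered with 50 UMIs or more in the cells compared and detection in at least 10% of either group. The median log2 ratio of the members was 1.05, 0.96 and 1.24, against 0.13, 0.05 and 0.17 for all genes. For genes that are no members and whose transcripts are shorter than 1000 bases the medians were 0.15, 0.08 and 0.21. In control dOLCs the median was 1.10 for proteins of the small subunit, 1.04 for those of the large subunit and 0.94 for the stalk.

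Members differed in how far they moved. Rps12, a small subunit protein, was at 553 CPM in MOL5/6d and 190 CPM in MOL5/6a of control dOLCs, a log2 ratio of 1.54 (1.35 to 1.73), with 1.56 and 1.78 in control vOLCs and ectopic vOLCs. Rpl18, a large subunit protein, was at 798 and 692 CPM, a log2 ratio of 0.21 (0.10 to 0.31), with 0.01 (-0.22 to 0.24) in control vOLCs and 0.30 (0.23 to 0.37) in ectopic vOLCs. These genes were picked after their values were seen, as being at or near the ends of the range. The lists of other genes of translation given here had lower medians in control dOLCs, a difference that was not tested. Of 77 genes for proteins of the mitochondrial ribosome, 73 were tested there and 42 passed the fold upward and 2 downward, with a median of 0.35. Of 59 translation factors 52 were tested, 26 passed upward and 4 downward, and their median was 0.25. Of all genes 38.2% passed upward and 18.9% downward there. Of 23 genes of ribosome assembly 18 were tested, 11 passed upward and 2 downward, with a median of 0.40. In control vOLCs 15 of 49 translation factors passed upward and 8 downward, a smaller share upward than the 35.6% of all genes, with a median of 0.12, and 3 of 8 assembly genes upward and 2 downward, with a median of 0.11. Mitochondrial ribosomal protein genes had medians of 0.48 in control vOLCs and 0.54 in ectopic vOLCs. In ectopic vOLCs, where 43.4% of all genes passed upward, 18 of 52 translation factors did, with a median of 0.16, and 10 of 18 assembly genes, with a median of 0.34. The 3 noncoding host genes with TOP starts all passed upward in control dOLCs, with a median of 0.53. In control vOLCs 1 of these 3 was tested, with 1.02, near the 0.96 of the members, and in ectopic vOLCs the 3 had a median of 0.98.

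Depth and cell quality moved with the split. In control dOLCs, MOL5/6d and MOL5/6a had medians of 6036 and 3910 UMIs per cell and of 4.06% and 6.68% mitochondrial UMIs, and the nuclear noncoding RNA Malat1 made up 6.44% and 10.7% of UMIs. The order was the same in control vOLCs, with 7576 and 5584 UMIs, 4.21% and 6.73% mitochondrial UMIs and 6.29% and 8.91% Malat1. In ectopic vOLCs the values were 7160 and 4391 UMIs, 4.52% and 8.73%, and 7.41% and 12.5%. MOL5/6c against MOL5/6b and MOL2b against MOL2a also had more UMIs and a lower mitochondrial share in each library. Malat1 was lower as well, but nearly equal in MOL5/6c and MOL5/6b of control vOLCs, at 8.64% and 8.71%. Within MOL5/6a of control dOLCs the member share was 3.69% in cells with under 3000 UMIs and 3.28% in those with 6000 or more. In MOL5/6d of ectopic vOLCs it was 7.56% at 4000 to 5000 UMIs and 6.96% at 6000 or more. At 4000 to 5000 UMIs MOL5/6a of the same library had 3.16%. The part of cell quality in the split was not tested.

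**Figure D3:**
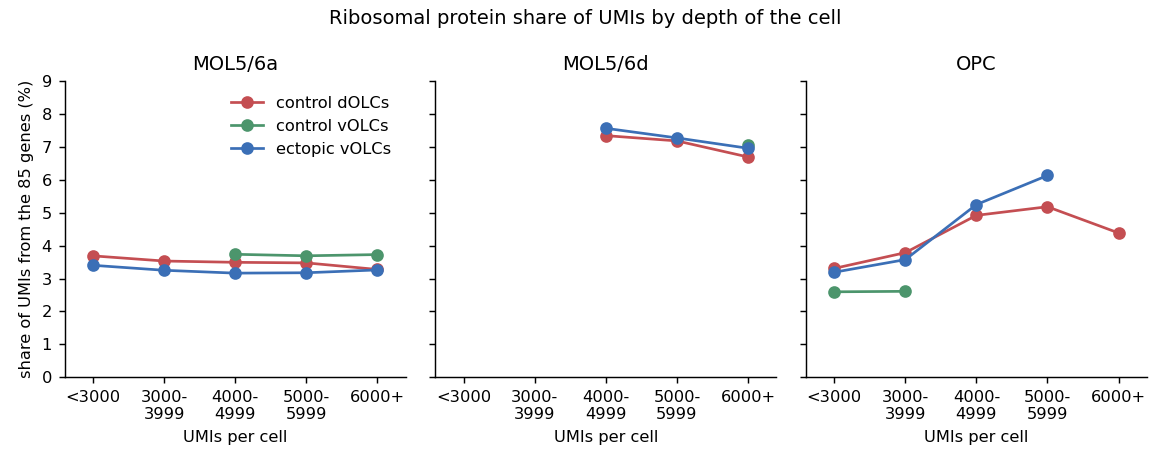
Share of UMIs from the 85 genes (percent) in cells binned by UMIs per cell, for MOL5/6a, MOL5/6d and OPCs; lines join the bins of a library with at least 20 cells. The share lies between 3.16% and 3.74% in MOL5/6a and between 6.69% and 7.56% in MOL5/6d, and in OPCs of control dOLCs and ectopic vOLCs it is higher above 4000 UMIs than below.

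Between conditions, MOL5/6 of ectopic vOLCs and control dOLCs were close when all cells were summed, and control vOLCs were lower. The members made up 5.29% (5.28 to 5.31), 4.34% (4.32 to 4.37) and 5.49% (5.48 to 5.50) of UMIs. For ectopic vOLCs against control dOLCs, the median log2 ratio of 82 members was 0.08 (order-statistic interval over genes, 0.04 to 0.12), with 5 members past 0.25 and 0 past -0.25, beside 14.6% and 28.2% of all genes. Rplp0, for which no direction is given above, is counted among the 5. For ectopic vOLCs against control vOLCs the median was 0.37 (0.33 to 0.41), with 65 members upward and 1 downward, beside 16.4% and 29.5%. For control vOLCs against control dOLCs it was -0.33 (-0.35 to -0.27), with 3 upward and 56 downward, beside 12.6% and 16.4%. The comparisons share libraries and are not independent of each other.

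The mix of subclusters differed along with these values. MOL5/6c and MOL5/6d together held 39.6%, 15.7% and 48.9% of MOL5/6 cells. MOL5/6a, b, c and d held 237, 236, 53 and 35 control vOLCs and 900, 42, 63 and 837 ectopic vOLCs. Within these subclusters the members' median of ectopic over control vOLCs was -0.21, -0.04, 0.11 and 0.01. Medians of all genes were -0.16, -0.17, -0.004 and -0.06 there. For control vOLCs over control dOLCs the members' median was 0.06, -0.06, -0.05 and 0.01, and for ectopic vOLCs over control dOLCs -0.12, -0.13, 0.02 and 0.03. With the 4 subclusters weighted alike, an alternative added after the data were seen, the 3 medians over MOL5/6 were -0.01, -0.03 and -0.02, and the share of UMIs was 5.21%, 5.22% and 5.11%. This gives the 42 ectopic vOLCs of MOL5/6b as much weight as the 900 of MOL5/6a. In cells of 3000 to 6000 UMIs alone the order of the libraries changed: the share was 5.35%, 3.79% and 4.13%, and the median of ectopic vOLCs over control dOLCs turned from 0.08 to -0.38. In the same cells the median of ectopic over control vOLCs was 0.16 instead of 0.37, with 21 members past the fold upward instead of 65 and 5 downward, beside 13.1% and 34% of all genes, and that of control vOLCs over control dOLCs was -0.54. In MOL2 the values ran alike, with MOL2b holding 32.1%, 3.24% and 48.0% of its cells and pooled medians of 0.55 for ectopic vOLCs to control vOLCs and -0.50 for control vOLCs to control dOLCs, against -0.20 and -0.03 within MOL2a. In MOL1, which was not split and held 34 control vOLCs, these medians were 0.68 and -0.46, beside 0.10 and -0.10 for all genes. For ectopic vOLCs to control dOLCs the MOL1 median was 0.25, beside -0.02 for all genes.

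**Figure D4:**
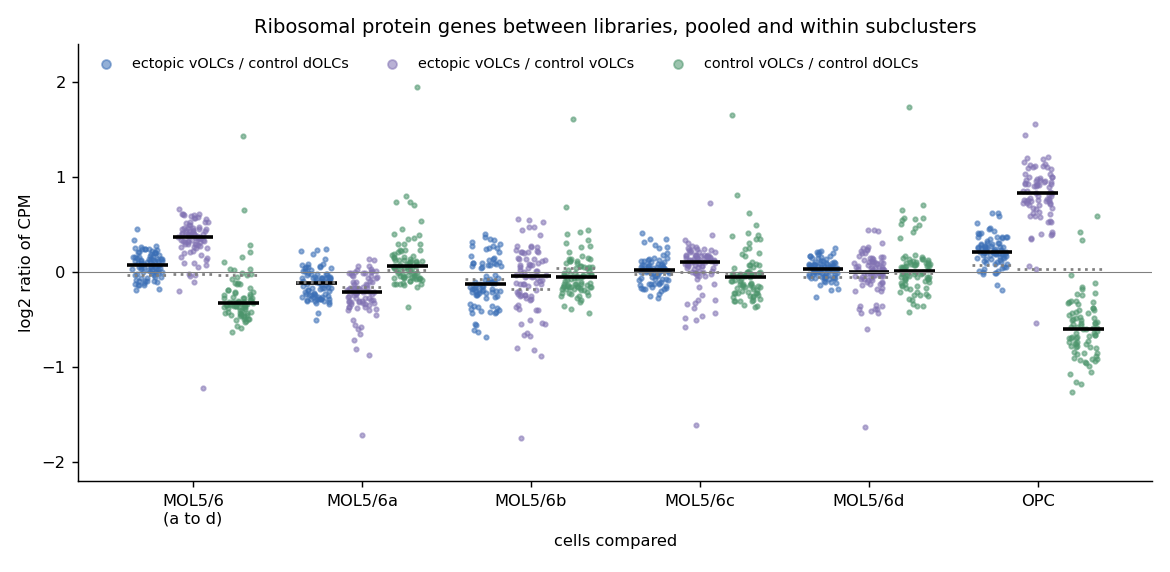
Log2 ratios of CPM of the members tested (points) for 3 comparisons of libraries, in MOL5/6 as a whole, in its 4 subclusters and in OPCs; black bars are medians of the members and dotted grey bars medians of all genes tested. The medians of 0.37 and -0.33 in MOL5/6 as a whole are between -0.21 and 0.11 within subclusters, and the highest point for control vOLCs over control dOLCs in MOL5/6 is Rpl6l.

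Among the members with the most UMIs in MOL5/6, Rpl41, the smallest protein of the ribosome, was at 1205, 1018 and 1128 CPM. Rps14, of the small subunit, was at 1209, 783 and 1069.9 CPM. In both genes control vOLCs were lowest.

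The members with the lowest ratios of ectopic vOLCs over control dOLCs in MOL5/6 differed by little. Rps9, of the small subunit, was at 796, 558 and 701 CPM, and ectopic vOLCs over control dOLCs gave -0.18 (-0.23 to -0.14). Its ratio was -0.26, -0.35, -0.25 and -0.26 in the 4 subclusters, the second interval reaching above 0 (-0.76 to 0.02). For Rps14 the pooled ratio was -0.18 (-0.21 to -0.14), and it was between -0.43 and -0.13 in the subclusters. Rps19 and Rpl10a had ratios of -0.14 and -0.13. Under edgeR's TMM scaling, which adds 0.17 to every ratio of this comparison, 80 of 82 members stood above 0 instead of 59 and 41 passed the fold upward instead of 5, and under DESeq2's size factors, which add 0.19, 82 and 44 did. These scalings move all genes alike: of all genes tested 65.9% then stood above 0 and 35.6% passed the fold upward under TMM, and 67.1% and 37.5% under DESeq2's factors, against 46.6% and 14.6% before.

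Upward, Rpl15 stood furthest apart. This large subunit protein was at 219, 344 and 298 CPM, so that both ventral libraries were above the dorsal one. Its log2 ratio was 0.45 (0.38 to 0.52) for ectopic vOLCs and 0.65 (0.55 to 0.75) for control vOLCs against control dOLCs. The second of these was between 0.65 and 0.81 in the 4 subclusters, where the medians of the members were between -0.06 and 0.06. The first was 0.03, 0.13, 0.35 and 0.25 there, with intervals that held 0 in MOL5/6a and MOL5/6b. Summed with its copy Gm10020 the ratios were 0.48 and 0.74. Rps3a1 was at 655, 574 and 825 CPM, a ratio of 0.33 (0.29 to 0.38) between ectopic vOLCs and control dOLCs, and Rps3 and Rpl39 had ratios of 0.27 each.

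Of 82 members 9 were above 0 for control vOLCs over control dOLCs in MOL5/6, beside 44.2% of all 5195 genes tested. Rpl6l, the pseudogene named above, was at 53.5, 145 and 62.2 CPM in MOL5/6, a log2 ratio of 1.43 (1.26 to 1.61) between the control libraries, and between 1.61 and 1.95 in the subclusters. Rpl6, the gene it derives from, was at 719, 613 and 793 CPM, a ratio of -0.23, and the 2 rows summed gave -0.03. Rpl27, another large subunit protein, had a ratio of 0.22 (0.11 to 0.32), and 0.40 when summed with its copies. Rplp1 and Rplp2, the stalk proteins that bind elongation factors, had ratios of -0.30 and -0.33 between the control libraries, and the sum with the copy Gm10073 gave -0.04 for Rplp1. The row matching Rplp2 is Wdr89, which is named for another gene, and their sum gave 0.001. For Rps12, which has the copy Rps12-ps3, the ratio was -0.42 alone and -0.11 summed, and for Rps26, with Rps26-ps1, it was -0.16 alone and 0.13 summed. Over all members, summing with the copies changed the median between the control libraries from -0.33 to -0.31.

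In OPCs the members differed more between libraries. Their share of UMIs was 3.85% (3.83 to 3.88), 2.55% (2.50 to 2.60) and 4.53% (4.49 to 4.57) in 853, 121 and 330 OPCs. For ectopic vOLCs over control dOLCs the median was 0.21 (0.19 to 0.26), with 33 members past 0.25 and 0 past -0.25, beside 28.2% and 17.1% of all genes. In cells of 3000 to 6000 UMIs this median was 0.14 with 17 members upward, beside 26% of all genes, and with CPM averaged cell by cell it was 0.16 with 19 upward, beside 27%. Both counts are a smaller share of the 82 members than of all genes, while 0 members passed downward beside 19.9% and 18.2%. Against control vOLCs it was 0.83 (0.76 to 0.92), with 79 upward and 1 downward, beside 34.9% and 28.4%. For control vOLCs to control dOLCs it was -0.60, with 3 upward and 72 downward, beside 31.5% and 28% of all genes.

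The OPC cluster held cells of low and of high share. The 10th percentile, median and 90th percentile of single cells were 2.397%, 3.24% and 5.76% for control dOLCs, 1.76%, 2.47% and 3.37% for control vOLCs, and 2.19%, 3.49% and 7.01% for ectopic vOLCs. Cells above 5% made up 15.6%, 0.826% and 31.2% of OPCs. In OPCs with under 3000 UMIs the share was 3.31%, 2.60% and 3.19%, and at 3000 to 4000 UMIs it was 3.79%, 2.61% and 3.57%. At 4000 to 5000 UMIs it was 4.92% in control dOLCs and 5.25% in ectopic vOLCs. Mbp was at 1515, 849 and 831 CPM and Mag at 806, 276 and 301 CPM in OPCs, and their part in the differences was not tested. In the summed counts, more cells of high share and more ribosomal protein RNA in each cell cannot be told apart.

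Named members of OPCs covered a wide range. Rpl12, of the large subunit, was at 158, 122 and 243 CPM, a log2 ratio of 0.62 (0.40 to 0.84) between ectopic vOLCs and control dOLCs. Rps18 was at 425, 312 and 639 CPM, a ratio of 0.59 (0.45 to 0.72), which became 0.38 when its copies were added. Rpl27 and Rpl15 had ratios of 0.52 and 0.46. At the other end, Rpsa, the laminin receptor protein of the small subunit, was at 502, 334 and 441 CPM with a ratio of -0.19 (-0.34 to -0.04), and Rps10, Rpl14 and Rps14 had ratios between -0.14 and -0.01 with intervals that held 0.

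Other genes of translation had lower medians than the members for ectopic over control vOLCs in OPCs, and this was not tested. Of 77 mitochondrial ribosomal protein genes 65 were tested, 45 passed the fold upward and 2 downward, with a median of 0.44. Of 23 genes of ribosome assembly 16 were tested, 12 upward and 0 downward, with a median of 0.64. For Ncl, nucleolin, the ratio was 0.88. Of 59 translation factors 53 were tested, 28 upward and 7 downward, with a median of 0.29. Eef1a1, the elongation factor that brings transfer RNA to the ribosome, was at 798 CPM in control vOLCs and 1407 in ectopic vOLCs. All genes tested had a median of 0.04, with 34.9% past the fold upward and 28.4% downward. Of the 3 noncoding host genes with TOP starts found in the table, 2 were tested and both passed upward. In MOL5/6 the same comparison gave medians of 0.18 for mitochondrial ribosomal proteins, 0.11 for ribosome assembly and 0.11 for translation factors.

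Most members were lower in OPCs than in MOL5/6 of the same library, and Rpl13 was higher. In control dOLCs the median log2 ratio of OPCs to MOL5/6 was -0.50, with 3 members past 0.25 and 68 past -0.25, beside 54.8% and 25.5% of all genes, whose median was 0.36. In control vOLCs it was -0.81, with 3 and 75 members beside 50.7% and 33.4% and a median of all genes of 0.27. In ectopic vOLCs it was -0.35, with 5 and 50 members beside 62.8% and 21.4% and a median of all genes of 0.58. TMM scaling lowers these ratios by between 0.66 and 0.92, and 80 of 82 members then passed the fold downward in each library, beside 52.5%, 60.6% and 53.2% of all genes. Within cells of 3000 to 6000 UMIs alone the medians were -0.38, -0.62 and 0.19, so that the direction in ectopic vOLCs turned.

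**Figure D5:**
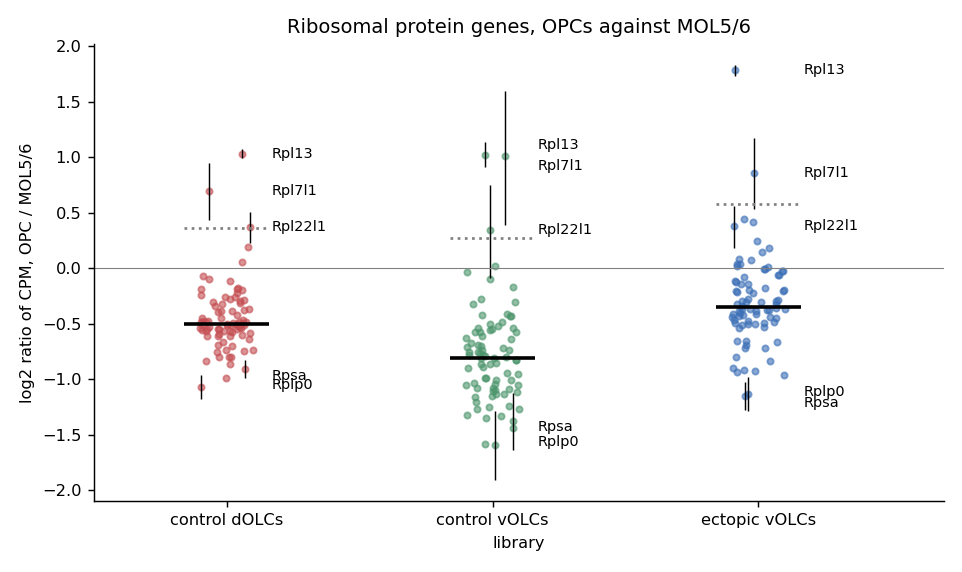
Log2 ratio of CPM between OPCs and MOL5/6 of the same library for each of 82 members; black bars are medians of the members, dotted bars medians of all genes tested, and thin lines 95% counting intervals of the genes named. Rpl13 lies at 1.03, 1.02 and 1.78, above every other member in each library, while the medians are -0.50, -0.81 and -0.35.

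Rpl13, a large subunit protein, was at 2565 CPM in OPCs and 1256 in MOL5/6 of control dOLCs, a log2 ratio of 1.03 (0.99 to 1.07). In control vOLCs it was at 2034 and 1002 CPM, a ratio of 1.02 (0.91 to 1.14), and in ectopic vOLCs at 3954 and 1149 CPM, a ratio of 1.78 (1.73 to 1.83). It gave 6.65%, 7.98% and 8.73% of the members' UMIs in OPCs, and 2.37%, 2.31% and 2.09% in MOL5/6. In cycling OPCs the level was 1482, 2273 and 3205 CPM over 17, 3 and 11 cells, with 4.63%, 7.79% and 7.57% of the members' UMIs. In control dOLCs and ectopic vOLCs this level was below that of the OPC cluster. In the COP/NFOL/MFOLa cluster of committed and newly formed cells it was at 710, 597 and 656 CPM, below MOL5/6. At least 1 UMI of Rpl13 was seen in 98.0%, 99.2% and 100% of OPCs, with medians of 6, 5 and 10 UMIs per cell, and the 10% of OPCs with the most UMIs of the gene held 31.6%, 25.3% and 30.7% of them. The named copy, Rpl13-ps3, took 2.85%, 11.0% and 3.23% of the UMIs of the pair over all kept cells. Under TMM scaling Rpl13 falls by the same 0.66, 0.85 and 0.92 as the other members, and in control vOLCs it then no longer passes the fold upward, which 0 members and 24.6% of all genes do there.

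Between conditions, ectopic vOLCs over control dOLCs gave 0.62 (0.57 to 0.68) for Rpl13 in OPCs, the same as for Rpl12, and -0.13 (-0.16 to -0.09) in MOL5/6. Without it, the share of UMIs from the members in OPCs was 3.598%, 2.35% and 4.13%, in the same order as before. Sequence windows at its start, printed above, hold a pyrimidine run of 9 bases that ends before the annotated start.

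The members lowest in OPCs relative to MOL5/6 were largely the same in each library. Rplp0 had ratios of -1.07, -1.59 and -1.13, which summed with Gm8730 were -1.12, -1.59 and -1.16. Rpsa was at 502 and 944 CPM in control dOLCs and had ratios of -0.91, -1.38 and -1.15. Rps21 had ratios of -0.99, -1.44 and -0.96, and Rps6, the protein phosphorylated by S6 kinase, -0.86, -1.32 and -0.93. At the other end stood mainly paralogues. Rpl10a, a large subunit protein, had ratios of 0.05, -0.03 and 0.44.

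The share of a pair held by the paralogue differed between OPCs and MOL5/6. Rpl22l1 held 37.5%, 38.8% and 38.8% of the UMIs of the pair with Rpl22 in MOL5/6, and 47.4% (44.4 to 50.5), 54.2% (44.3 to 63.9) and 48.7% (44.5 to 53.0) in OPCs. Rps27l, next to Rps27, held 17.2%, 14.0% and 17.3% in MOL5/6 and 26.0%, 25.0% and 28.5% in OPCs. Rpl7l1, next to Rpl7, held 5.74%, 6.96% and 6.19% in MOL5/6 and 12.1%, 24.8% and 14.5% in OPCs. Rpl36al, next to Rpl36a, held 39.0%, 40.9% and 39.8% in MOL5/6 and 43.0%, 59.2% and 44.1% in OPCs. In these pairs the paralogue held a larger share in OPCs than in MOL5/6 of each library, though for Rpl36al the intervals of ectopic vOLCs overlapped (38.5 to 41.1 and 40.3 to 47.9). Rpl6l held 6.93%, 19.1% and 7.27% of the pair with Rpl6 in MOL5/6 and 6.32%, 11.2% and 4.93% in OPCs. It was lower in OPCs of the 2 ventral libraries, while in control dOLCs the intervals overlapped (6.47 to 7.41 and 5.07 to 7.77). Rpl3l, Rpl10l and Rpl39l, known from muscle, testis and germ cells, were at or near 0: in MOL5/6 of control dOLCs, 0 UMIs of Rpl3l, with the limit set at 3 UMIs, allow up to 0.202 CPM, beside 685 CPM of Rpl3.

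Across clusters and libraries the members moved together. Over 27 groups of cells of 1 cluster and library with at least 20 cells, the log2 CPM of a member and that of the sum of the other members had a median Pearson r of 0.95 over 82 members, and 61 had an r above 0.9. The groups share libraries and clusters, and CPM is a share of a total, so this is a description. The same r was not computed for other genes, so no excess over them is read from these values. Highest were Rpl23a, Rps25, Rpl9, Rpl19 and Rps12 with an r of 0.99 each. The lowest were Rpl7l1 with 0.18, Rpl13 with 0.27, Rpl15 with 0.51 and Rpl6l with 0.52, and then Rpl18 and Rplp0 with 0.68 each. Rpl13 ranged from 656 to 3954 CPM over the groups and Rpl18 from 485 to 798 CPM.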

How the data were processed

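Adult OLCs were profiled with 10x Genomics 3′ single-cell RNA-seq, with 1 library per condition; the 4 P0 samples were not analysed here. Per the labels' processing notes the reads were processed with Cell Ranger 2.1.1 on mm10, whereas the methods name another release. The authors deposited raw UMI counts per gene and cell, which are whole numbers, and an annotation with library, cluster and, as a percent, the mitochondrial share of each cell. Of 10081 barcodes the authors kept 9291 cells, which held between 691 and 2999 genes and at most 15.0% mitochondrial UMIs. Clusters and their names are the authors'. No doublet caller was run, and leaving out the 6% of cells with most UMIs was an alternative.

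For each library and cell type the UMIs of all cells were added up, scaled to CPM by all UMIs, and compared as a log2 ratio with a 95% conditional exact binomial interval. With 1 library per condition no p-value was computed. A fold was passed at a log2 ratio of at least 0.25 or at most -0.25. Transcripts of GENCODE M21 (GRCm38), found for all 85 members, were aligned with blastn 2.17.0, and each member was given 1 transcript. Python 3.11.15, scipy 1.17.1, edgeR 4.0.16 and DESeq2 1.42.0 (scaling factors only) were used. The scripts were tested on simulated counts. Alternatives covered the scaling, the filter, depth, mitochondrial share, copies and the weight of subclusters.

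The members and lists were chosen with earlier results of these data known. Named genes were the 5 with the highest CPM in MOL5/6 of control dOLCs, the 5 at each end of the ratio of ectopic vOLCs over control dOLCs in MOL5/6 and in OPCs and of OPCs to MOL5/6 in control dOLCs, paralogues, and members whose copy held at least 50 UMIs, with that copy, and of each gene list up to 4 genes with the most UMIs. Others are named as chosen after their values were seen. Some genes that these rules name are not reported here. Reads matching several genes may be lost or given to one copy, which lowers a member's count. Depth was between 4846391 and 23078181 UMIs in kept cells per library.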

Additional observations from a re-analysis of the deposited data

Results flagged for a closer look

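In 10 of 82 members (12.2%) the difference between ectopic vOLCs and control dOLCs had opposite signs in MOL5/6 and in OPCs, with both counting intervals clear of 0, as it had in 3.85% of all 4549 genes tested in both cell types. Counting intervals are narrower for genes with more UMIs. The members and all genes were not matched for UMIs, so no excess among the members is read from these shares. The difference between the cell types itself was not tested, and TMM scaling, which adds 0.17 to each ratio in MOL5/6, turns the 9 negative values there above 0. Rpl13 had log2 ratios of -0.13 in MOL5/6 and 0.62 in OPCs. Rpl10a had -0.13 and 0.26, Rpl11 -0.11 and 0.21, Rpl18 -0.085 and 0.23, Rpl32 -0.057 and 0.22, and Rpl36 -0.11 and 0.27. Rpl37 had -0.048 and 0.26, Rpl37a -0.089 and 0.19, and Rpl41 -0.10 and 0.18. Rpsa had the opposite order, with 0.055 in MOL5/6 and -0.19 in OPCs. Between control vOLCs and control dOLCs, 1 of 82 members (1.22%) did so, against 1.92% of 4384 genes: Rps2 had 0.11 in MOL5/6 and -0.43 in OPCs.

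Barcodes removed by the authors' quality filter, which no comparison uses, also carried UMIs of the members. They made up 5.84% of the UMIs of 288 removed barcodes of ectopic vOLCs, above 4.87% of 388 barcodes of control dOLCs and 4.59% of 114 barcodes of control vOLCs.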

How the results depend on the processing

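No paired analysis was possible because the control libraries, though from the same mice, are 1 pooled library each with the mice not told apart. Leaving out a library was not run, as it leaves nothing to compare. Weighting subclusters alike, the wider rule for copies, leaving out shared barcodes and leaving out Rpl13 were chosen after seeing the data. Of 279 values under alternatives, 194 moved by less than their interval or stayed within 1.5 times of a count, 83 moved by more and 2 changed the sign of a median past the fold of 0.25; the cause was not tested. The median of e over d in MOL5/6, which was not past that fold, also changed sign under 2 alternatives given below. Values below are for control dOLCs, control vOLCs and ectopic vOLCs in that order where 3 shares are given, and d, v and e stand for these libraries in ratios.

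TMM gave medians in MOL5/6 of 0.25 (e over d, 41 members upward beside 35.6% of all genes) and 0.52 (e over v), and OPC over MOL5/6 medians of -1.16, -1.65 and -1.27 (80 downward in e beside 53.2%). DESeq2 factors gave 0.27 (44 upward beside 37.5%), 0.53, -1.08, -1.49 and -1.19 (80 downward in e beside 50.3%). In cells of 3000 to 6000 UMIs the MOL5/6 medians were -0.38 (e over d, 0 upward beside 14%), 0.16 (e over v, 21 upward beside 13.1%) and -0.54 (v over d), those in OPCs 0.14 (17 upward beside 26%), 0.93 and -0.76, and OPC over MOL5/6 -0.38, -0.62 and 0.19 (11 downward beside 17.4%), the last with its direction changed. Shares there were 5.35%, 3.79% and 4.13% in MOL5/6, and 4.31% (d) and 4.77% (e) in OPCs. With subclusters weighted alike the MOL5/6 medians were -0.019 (e over d, 0 upward beside 7.3%), -0.0078 (e over v, 2 upward beside 11.9%, direction changed) and -0.034 (v over d, 0 downward beside 12.5%), and the shares 5.21%, 5.22% and 5.11%.

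Averaging CPM cell by cell gave 0.16 (19 upward beside 27%), 0.68 and -0.51 in OPCs. Thinning to 1000 UMIs gave 0.15, 0.68 and -0.50 in OPCs, OPC over MOL5/6 medians of -0.47 (d) and -0.67 (v), and 8 members upward in MOL5/6 for e over d beside 22.3%. Cells of at most 10% mitochondrial UMIs gave OPC over MOL5/6 medians of -0.55 (d) and -0.42 (e) and MOL5/6 shares of 5.45%, 4.42% and 5.73%. Without mitochondrial UMIs in the total, shares were 5.67%, 4.66% and 5.86% in MOL5/6 and 4.04%, 2.68% and 4.73% in OPCs. As means over cells they were 4.98%, 4.16% and 5.10% in MOL5/6 and 3.66% (d) and 4.15% (e) in OPCs. With copies added they were 5.35%, 4.48% and 5.55%, and 3.90%, 2.64% and 4.58% in OPCs; with the wider rule 5.45%, 4.63% and 5.62%, and 3.96%, 2.71% and 4.64%. Without Rpl13 the OPC shares were 3.598%, 2.35% and 4.13%, and without the 6% of cells with most UMIs the MOL5/6 shares were 5.22%, 4.21% and 5.38%.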
